A study of Mus musculus with 12 samples.

Results

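The genes described here encode the adhesion molecules with which white blood cells hold on to and cross blood vessel walls. The 9 genes are Icam1, Vcam1, Sele, Selp, Icam2, Pecam1 and Cdh5 of the vessel wall, and Itgam and Itgb2 of the leukocyte. A gene was taken from a probe set that the platform annotation pairs with its symbol alone, and each measured gene had 1 such probe set. In this way 8 of the 9 genes were found among 19938 genes measured, and Selp had no such probe set in the annotation used and was not analysed here.

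Skin of female Balb/c mice was measured on Affymetrix Mouse Gene 1.0 arrays. The groups were skin of untreated mice and skin collected 1.5 h, 6 h and 24 h after RNAdjuvant, a vaccine adjuvant of peptide-bound non-coding RNA, was put into the dermis, with 3 biological replicates in each. The labels give 25 mg of RNAdjuvant, and that unit was not checked. Untreated mice were the only controls analysed here, without an injection of carrier, and the age of the mice is not given in the sources used here.

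Leukocytes leave the blood in steps. E-selectin (Sele) and P-selectin (Selp) on activated endothelium let them roll by binding sugars on ligands such as PSGL-1. Integrins then hold them still: VCAM-1 (Vcam1) binds the integrin of the alpha 4 and beta 1 chains, and ICAM-1 (Icam1) binds LFA-1 and Mac-1, which share the beta 2 chain of Itgb2. Itgam encodes the alpha chain of Mac-1 and is a gene of myeloid cells and natural killer cells. ICAM-2 (Icam2), PECAM-1 (Pecam1) and VE-cadherin (Cdh5) are present on resting endothelium, where VE-cadherin holds neighbouring cells together and PECAM-1 takes part in the passage between them. Inflammatory cytokines such as TNF and interleukin 1 are known to induce Icam1, Vcam1 and Sele. In skin, keratinocytes, fibroblasts and leukocytes can also express Icam1, and whole tissue does not show which cell carried a transcript.

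Values are log2 intensities, so that a difference of 1 is a doubling. A gene counted as changed at an adjusted p under 0.05 in limma, over all genes measured. A list of 29 other endothelial marker genes had a mean of 7.06 to 7.11 in untreated skin, 6.99 to 7.21 at 1.5 h, 6.83 to 7.19 at 6 h and 7.01 to 7.32 at 24 h. Of its genes, 0, 0 and 1 rose at the 3 times (Ecscr at 24 h, by 0.78). A list of 16 genes of all leukocytes had a mean of 7.89 to 8.33 in untreated skin, 8.18 to 8.84 at 1.5 h, 8.26 to 8.92 at 6 h and 8.92 to 9.19 at 24 h. Some libraries stood apart in content. The lymph node vessel gene Glycam1 was at 11.38 in 1.5 h replicate 1 and 10.88 in 6 h replicate 1, and at 3.87 to 4.46 in the other libraries. Myl2, a gene of heart and slow muscle, was over 9 in 1.5 h replicates 1 and 2 and 24 h replicates 1 and 3. Leaving out these 4 libraries leaves a single library at 1.5 h and a single one at 24 h, so only changes are given for that setting. The change of Ecscr at 24 h was then 0.70. Krt18, a keratin of simple epithelium, was at 5.51 to 5.92 in untreated skin, 8.23 to 9.81 at 1.5 h, 4.93 to 9.14 at 6 h and 8.13 to 8.79 at 24 h. The part of this content in the results was not tested, beyond the values given without the libraries concerned.

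**Figure D1:**
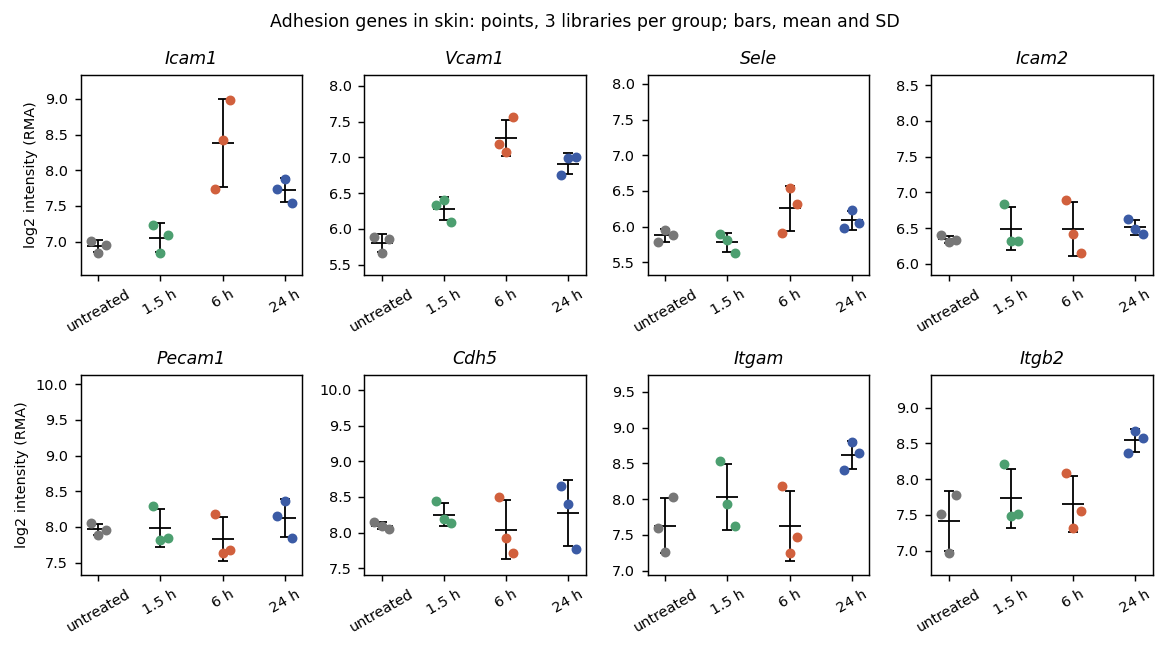
Log2 intensity of the 8 adhesion genes in each of 12 libraries, by time. Points are libraries, bars are the mean and SD of 3 libraries, and each panel spans the same number of log2 units. Icam1 and Vcam1 stand highest at 6 h, while Itgam and Itgb2 stand highest at 24 h.

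Icam1 and Vcam1 rose in the skin by 6 h, Vcam1 was still higher at 24 h, and the leukocyte integrin gene Itgb2 rose at 24 h. The resting endothelial genes Icam2, Pecam1 and Cdh5 passed no test at any time. At 1.5 h, 0 of 8 genes changed by limma, and 1 had an unadjusted p under 0.05. Over all genes 0.612% rose and 1.59% fell at that time. At 6 h, 2 of 8 rose and 0 fell, where 3.38% of all genes rose and 2.71% fell. At 24 h, 2 of 8 rose and 0 fell, where 2.55% of all genes rose and 0.808% fell. The median change of the 8 genes was 0.15, 0.20 and 0.50 at 1.5 h, 6 h and 24 h, against 0.02, -0.04 and 0.00 over all genes. The treated and untreated libraries did not overlap for 1 of 8 genes at 1.5 h, 2 of 8 at 6 h and 6 of 8 at 24 h. That was so for 25.1%, 30.8% and 23.3% of all genes. In a moderated F test over the 3 times, Vcam1 (adjusted p = 4e-05), Icam1 (adjusted p = 0.0037) and Itgb2 (adjusted p = 0.0328) changed, where 11.4% of all genes did. Itgam had an adjusted p of 0.0601 in that test, Sele 0.11, Pecam1 0.601, Cdh5 0.744 and Icam2 0.825.

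Vcam1 (probe set 10501608), the endothelial partner of the alpha 4 integrins, had the smallest adjusted p of the group. It measured 5.89, 5.66 and 5.86 in untreated skin, 6.34, 6.40 and 6.10 at 1.5 h, 7.19, 7.08 and 7.56 at 6 h, and 6.75, 6.99 and 7.00 at 24 h. Each treated group lay wholly above the untreated libraries, and the 6 h libraries lay above all others. The means were 5.80 ± 0.13, 6.28 ± 0.16, 7.28 ± 0.25 and 6.91 ± 0.14 in that order (SD, n = 3 each). Vcam1 rose 2.78-fold at 6 h (log2 change 1.47 with a 95% interval of 1.17 to 1.77, adjusted p = 1.07e-05) and 2.15-fold at 24 h (1.11, interval 0.81 to 1.41, adjusted p = 0.000262). Both calls held in all 27 other settings tried. At 1.5 h the difference was 0.48 (interval 0.18 to 0.78), with an unadjusted p of 0.00435 and an adjusted p of 0.0981.

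Icam1 (probe set 10583519), the ligand of the beta 2 integrins, was high at 6 h with a wide spread. It measured 7.01, 6.84 and 6.96 in untreated skin, 7.23, 6.84 and 7.10 at 1.5 h, 7.74, 8.42 and 8.98 at 6 h, and 7.74, 7.88 and 7.54 at 24 h. Libraries of 6 h and of 24 h lay above every untreated library, those of 1.5 h did not, and those of 6 h and 24 h overlapped, since 24 h replicate 2 at 7.88 lay above 6 h replicate 1 at 7.74. The means were 6.93 ± 0.09, 7.06 ± 0.20, 8.38 ± 0.62 and 7.72 ± 0.17 in that order (SD, n = 3 each). Icam1 rose 2.72-fold at 6 h (log2 change 1.44 with an interval of 0.94 to 1.94, adjusted p = 0.00173), which held in all 27 other settings. At 24 h the difference was 0.79 (interval 0.29 to 1.29, adjusted p = 0.0928). That difference passed without 6 h replicate 1 (adjusted p = 0.0121) or without 6 h replicate 3 (adjusted p = 0.0238), libraries that enter it only through the shared estimate of spread. In a fit of the untreated and 24 h libraries alone its adjusted p was 0.0061. At 1.5 h the difference was 0.12 (interval -0.38 to 0.62, adjusted p = 0.833).

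RefSeq's promoter table (GRCm38.p6) holds 4 of the 9 genes, namely Icam1, Sele, Selp and Itgam. The 250 bases before the start are shown for Icam1 and Sele, the vessel genes among these that were measured. They lie at chr9:21015690-21015939 for Icam1 and chr1:164047984-164048233 for Sele, both on the plus strand. Capitals mark matches to TTCNNNGAA, the spacing bound by STAT factors, and to GGAAATTC on either strand, a core found in the NF-kB element of the human ICAM1 promoter. The second of these was chosen after the sequences had been seen. The windows of Selp and Itgam, not shown, matched neither of these motifs.
Icam1: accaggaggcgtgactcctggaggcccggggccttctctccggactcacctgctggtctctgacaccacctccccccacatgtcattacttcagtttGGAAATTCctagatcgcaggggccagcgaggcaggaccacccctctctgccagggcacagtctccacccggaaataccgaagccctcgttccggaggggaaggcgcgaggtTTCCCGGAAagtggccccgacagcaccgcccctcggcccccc
Sele: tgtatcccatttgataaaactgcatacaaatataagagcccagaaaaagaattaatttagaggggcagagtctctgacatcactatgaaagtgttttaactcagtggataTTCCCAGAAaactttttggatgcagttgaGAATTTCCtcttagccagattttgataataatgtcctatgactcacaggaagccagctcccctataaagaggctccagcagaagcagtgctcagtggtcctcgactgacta
Counted back from the start, TTCNNNGAA matched at -42 to -34 in Icam1 and at -140 to -132 in Sele, and 7.02% of 32851 promoters hold it in a window of this length. GGAAATTC matched at -153 to -146 in Icam1 and, on the other strand, at -111 to -104 in Sele, and 0.782% of promoters hold it. Sele also held TGANTCA (in 6.75% of promoters), TGACNTCA (7.49%), TATAAA (12.4%) and, on the other strand and overlapping the GGAAATTC match, GAGGAA (23.3%). The interferon-stimulated response element (2.98%) and the standard NF-kB consensus (3.9%) had no match in either window. All motifs were searched on both strands, and a match is a description of the letters only.

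Sele (probe set 10351182), which encodes the selectin that endothelium makes on activation, moved little, at a mean level not above the median of all genes. It measured 5.79, 5.96 and 5.88 in untreated skin, 5.90, 5.81 and 5.63 at 1.5 h, 5.91, 6.54 and 6.32 at 6 h, and 5.98, 6.24 and 6.05 at 24 h. Of the 6 h libraries, replicates 2 and 3 lay above all untreated ones and replicate 1, the library high in Glycam1, lay among them. The 6 h difference was 0.38 (interval 0.07 to 0.70, unadjusted p = 0.021, adjusted p = 0.14). Without 6 h replicate 1 it was 0.56 and passed (adjusted p = 0.0248). The differences at 1.5 h (-0.09, interval -0.41 to 0.22) and 24 h (0.22, interval -0.10 to 0.53) did not pass (adjusted p = 0.789 and 0.487), although the 24 h libraries lay above the untreated ones.

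The genes of resting endothelium varied between libraries of 1 time as much as between times. Icam2 (probe set 10392177) measured 6.40, 6.30 and 6.33 in untreated skin, 6.84, 6.32 and 6.32 at 1.5 h, 6.90, 6.42 and 6.15 at 6 h, and 6.63, 6.49 and 6.42 at 24 h. Pecam1 (probe set 10392221) measured 8.05, 7.89 and 7.96 in untreated skin, 8.30, 7.82 and 7.84 at 1.5 h, 8.18, 7.63 and 7.68 at 6 h, and 8.15, 8.37 and 7.84 at 24 h. Cdh5 (probe set 10574438) measured 8.15, 8.09 and 8.05 in untreated skin, 8.44, 8.19 and 8.13 at 1.5 h, 8.50, 7.92 and 7.71 at 6 h, and 8.66, 8.40 and 7.77 at 24 h. Replicate 1 was the highest library for all 3 genes at 1.5 h and at 6 h, and these are the libraries high in Glycam1. The groups overlapped at each time, except for Icam2 at 24 h, whose libraries lay just above the untreated ones. The changes of the 3 genes lay between -0.14 (Pecam1 at 6 h, interval -0.52 to 0.24) and 0.18 (Cdh5 at 24 h, interval -0.29 to 0.65), and their adjusted p between 0.636 and 0.969. Icam2 differed by 0.15 at 6 h (interval -0.23 to 0.53) and 0.17 at 24 h (interval -0.21 to 0.55). A change of 2-fold in either direction lay outside the interval of each of these genes at each time. In whole skin, a change in the number of endothelial cells and a change in the RNA of each cannot be told apart.

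The Mac-1 genes were highest at 24 h. Itgam (probe set 10557862) measured 7.60, 7.26 and 8.03 in untreated skin, 8.54, 7.93 and 7.62 at 1.5 h, 8.18, 7.24 and 7.47 at 6 h, and 8.41, 8.80 and 8.64 at 24 h. Itgb2 (probe set 10364262) measured 7.51, 6.96 and 7.78 in untreated skin, 8.21, 7.48 and 7.51 at 1.5 h, 8.09, 7.32 and 7.56 at 6 h, and 8.37, 8.68 and 8.58 at 24 h. For both genes the 24 h libraries lay above the untreated ones, and replicate 1 was the highest library at 1.5 h and at 6 h. Itgb2 rose 2.19-fold at 24 h (log2 change 1.13 with an interval of 0.60 to 1.66, adjusted p = 0.0202). The call of Itgb2 was lost without untreated replicate 2 (adjusted p = 0.0947), 24 h replicate 2 (0.0685) or 24 h replicate 3 (0.0771), and its change then lay between 0.90 and 1.11. Without the 4 libraries high in Myl2, which leaves a single 24 h library, its change was 1.26. Itgam stood 0.99 higher at 24 h (interval 0.41 to 1.56, adjusted p = 0.0671). That difference passed without 1.5 h replicate 1 (adjusted p = 0.0376) or 6 h replicate 1 (adjusted p = 0.0321). These libraries enter it only through the shared estimate of spread. In 22 of the 27 other settings it did not pass. At 1.5 h and 6 h neither passed (adjusted p from 0.467 to 0.999). Of the 16 genes of all leukocytes, 1, 4 and 10 rose at 1.5 h, 6 h and 24 h and 0 fell. The count at 24 h was 6 without untreated replicate 2, 24 h replicate 2 or 24 h replicate 3. Another 3 probe sets are annotated to Itgam and Rpl35 together and were not used.

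**Figure D2:**
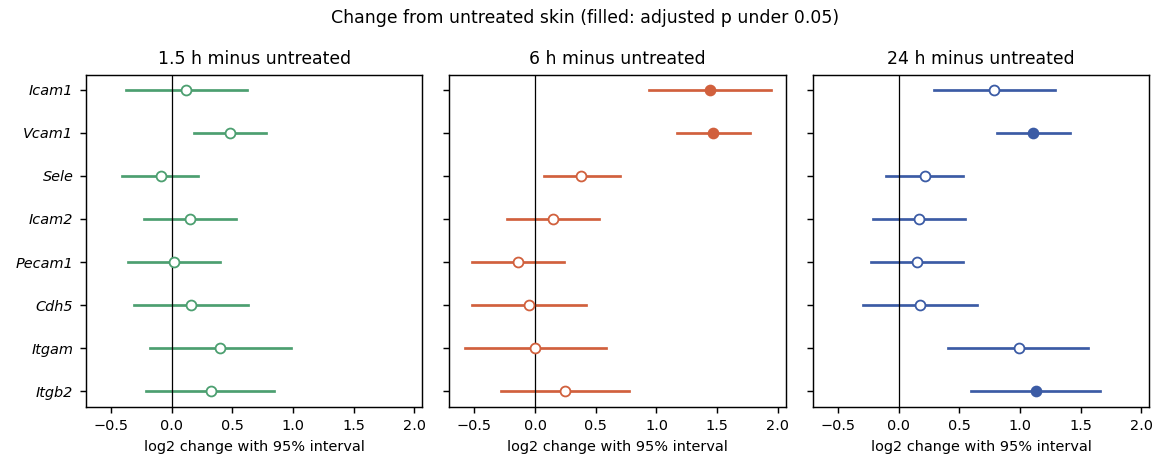
Change of each gene from untreated skin at 1.5 h, 6 h and 24 h, as log2 difference of group means with 95% intervals from limma. Filled points have an adjusted p under 0.05. Icam1 and Vcam1 are filled at 6 h, and Vcam1 and Itgb2 at 24 h.

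The change of each gene was also set against a cell type marker list, as its deviation from the untreated mean minus that of the list in the same library. Whole tissue does not show which cell carried a transcript, so a value above a list is not a rise per cell. The endothelial list served for the vessel genes, and the list of all leukocytes for Itgam and Itgb2. An exact permutation test of 3 against 3 libraries cannot go below p = 0.1. Vcam1 stood 1.29 to 2.03 above the endothelial list at 6 h, against -0.12 to 0.08 in untreated skin, and 0.72 to 1.28 above it at 24 h (exact p = 0.1 for both). At 1.5 h its 3 libraries stood 0.39 to 0.70 above the list (exact p = 0.1). Icam1 stood 0.70, 1.70 and 2.31 above the list at 6 h, against -0.07 to 0.06 in untreated skin, and 0.58 to 0.81 above it at 24 h (exact p = 0.1 for both). Its lowest 6 h library was replicate 1, where the list itself was highest of the 6 h libraries at 7.19. Sele stood 0.51 above the list at 6 h on average (-0.06 to 0.88, exact p = 0.3). Pecam1 stood within 0.06 of the list on average at each time (exact p from 0.8 to 1). Cdh5 stood 0.13 to 0.23 above the list at 1.5 h, against -0.06 to 0.04 in untreated skin (exact p = 0.1), and 0.08 and 0.09 above it on average at 6 h and 24 h (exact p = 0.7 for both). Icam2 stood 0.07 to 0.38 above the list at 1.5 h and 0.08 to 0.46 above it at 6 h, against -0.03 to 0.04 in untreated skin (exact p = 0.1 for both), and 0.08 above it on average at 24 h (exact p = 0.2). Itgb2 stood 0.20 above the leukocyte list at 24 h (exact p = 0.4) and Itgam 0.06 above it (exact p = 0.8), where the list itself was at 8.92 to 9.19, against 7.89 to 8.33 in untreated skin. At 6 h Itgam stood 0.21 to 0.52 below the leukocyte list, outside its untreated range of -0.19 to 0.29 (exact p = 0.1).

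**Figure D3:**
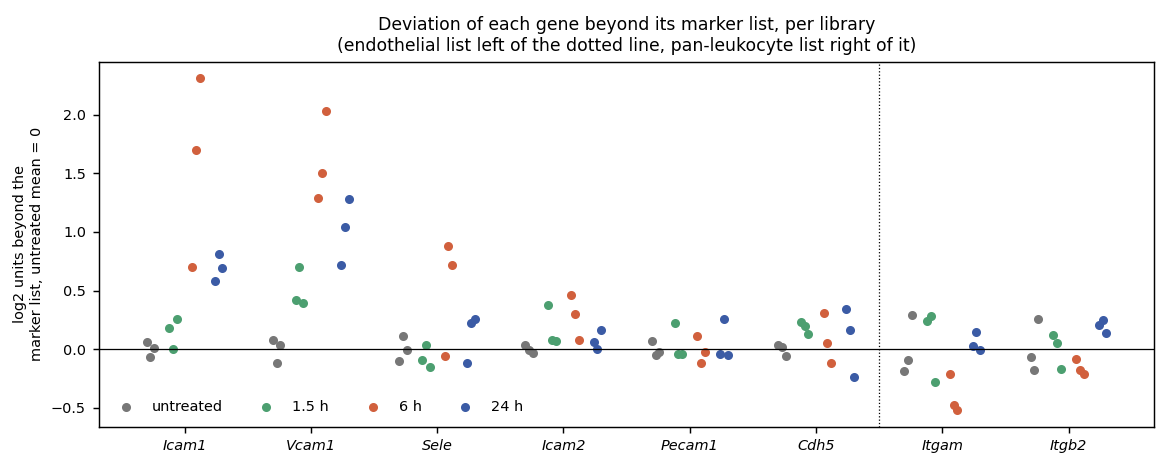
Deviation of each gene from its untreated mean minus the deviation of the marker list, in log2 units, for 12 libraries. Vessel genes left of the dotted line are set against 29 endothelial genes and the integrin genes right of it against 16 leukocyte genes. Icam1 and Vcam1 at 6 h and 24 h stand above the untreated points, while Pecam1 stays near 0 on average.

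Times were compared with each other directly. From 1.5 h to 6 h, 3 of 8 genes rose and 0 fell, where 5.47% of all genes rose and 7.8% fell. Icam1 was higher at 6 h by 1.32 (interval 0.82 to 1.82, adjusted p = 0.00328), Vcam1 by 1.00 (interval 0.69 to 1.30, adjusted p = 0.000542) and Sele by 0.48 (interval 0.16 to 0.79, adjusted p = 0.0472). The call of Sele lay close to the threshold and was lost without any of untreated replicates 1 to 3, 1.5 h replicates 1 to 3, 6 h replicates 2 and 3, and 24 h replicates 1 and 3 (adjusted p from 0.0532 to 0.193). Without the 4 libraries high in Myl2, which leaves a single 1.5 h library, the difference of Icam1 was 1.28. From 6 h to 24 h, 0 of 8 genes changed by limma while 4 had an unadjusted p under 0.05, where 2.03% of all genes rose and 1.41% fell. The difference of 24 h and 6 h was -0.66 for Icam1 (adjusted p = 0.134) and -0.37 for Vcam1 (adjusted p = 0.16), while Itgam stood 0.99 higher at 24 h (adjusted p = 0.0625) and Itgb2 0.88 higher (adjusted p = 0.0662). Without 6 h replicate 1, these 24 h differences passed for Icam1 (-0.98, adjusted p = 0.00972), Itgam (1.26, adjusted p = 0.0179) and Itgb2 (adjusted p = 0.0273). Without 1.5 h replicate 1 they passed for Itgam (adjusted p = 0.0427) and Itgb2 (adjusted p = 0.0441). That library enters these differences only through the shared estimate of spread. Between 1.5 h and 24 h, 1 of 8 genes rose and 0 fell, where 2.24% of all genes rose and 0.667% fell. This was Vcam1, 0.63 higher at 24 h (interval 0.33 to 0.93, adjusted p = 0.0257). The call was lost without 1.5 h replicate 2 (adjusted p = 0.0533), 1.5 h replicate 3 (0.105), 24 h replicate 2 (0.111) or 24 h replicate 3 (0.0787). Without the 4 libraries high in Myl2 the difference of Vcam1 was 0.89, with a single library left at each of the 2 times. Icam1 stood 0.66 higher at 24 h than at 1.5 h (adjusted p = 0.172). Its adjusted p was 0.0378 without 6 h replicate 1, which enters this difference only through the shared estimate of spread. Itgb2 stood 0.81 higher at 24 h than at 1.5 h (adjusted p = 0.107, or 0.0315 without 1.5 h replicate 1).

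By level, Vcam1 ordered from low to high as untreated, 1.5 h, 24 h and 6 h. Of the neighbours in that order, 24 h and 1.5 h differed by the test, while 1.5 h and untreated skin, and 6 h and 24 h, did not. Icam1 had the same order, and no pair of neighbours in it passed. Itgb2 ordered as untreated, 6 h, 1.5 h and 24 h, and its neighbours did not differ by the test. Genes with a like pattern were sought by Pearson r over the 12 libraries, which share the 4 groups, among 3031 genes that span at least 1 log2 unit. Those closest to Icam1 were Cd40 (r = 0.969), a receptor of the TNF receptor family, Myd88 (r = 0.957), the adaptor of Toll-like and interleukin 1 receptors, and Gem (r = 0.953), a small GTP-binding protein. Cd40 stood 0.36, 2.79 and 1.34 above untreated skin at 1.5 h, 6 h and 24 h. Those closest to Vcam1 were Calhm6 (r = 0.979), a channel family gene, Trex1 (r = 0.979), a DNA exonuclease, and Slc15a3 (r = 0.976), a peptide and histidine transporter. Calhm6 stood 0.77, 3.22 and 2.23 above untreated skin at the 3 times. Those closest to Itgb2 were Hcls1 (r = 0.971) and Lcp1 (r = 0.955), both on the list of all leukocytes, and Itgam (r = 0.953).

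Among the leukocyte integrins other than Mac-1, single chains rose. Of 15 further subunits, 0 rose and 1 fell at 1.5 h, 1 rose and 0 fell at 6 h, and 3 rose and 0 fell at 24 h, with medians of -0.01, 0.01 and 0.06. Itga4, the alpha 4 chain that binds VCAM-1, rose at 6 h to 7.86 ± 0.16, against 6.80 ± 0.07 in untreated skin (SD, n = 3 each, log2 change 1.06, adjusted p = 0.00211), and its partner Itgb1 differed by -0.07 (adjusted p = 0.711). At 24 h Itga4 stood 0.60 higher (adjusted p = 0.0869). Itgal, the alpha chain of LFA-1, which binds ICAM-1 and ICAM-2, rose at 24 h to 6.59 ± 0.18, against 5.67 ± 0.07 in untreated skin (SD, n = 3 each, change 0.92, adjusted p = 0.00199). Itgb7, the beta chain that pairs with alpha 4 in gut-homing cells, rose by 0.68 at 24 h (adjusted p = 0.00349). Itgb5 fell by 0.60 at 1.5 h (adjusted p = 0.00999). Without the libraries high in Myl2 the change was 0.73 for Itgb7 and -0.56 for Itgb5. Itga5, the alpha chain of the fibronectin receptor, rose by 0.55 at 24 h (adjusted p = 0.0432), a call near the threshold that was lost without any of 9 single libraries (adjusted p up to 0.15). The T and NK cell list of 14 genes had 0, 3 and 6 that rose at the 3 times. The 6 at 24 h were Ncr1, Klrk1, Nkg7, Gzma, Gzmb and Prf1. The others, Klrb1c, Cd2, Cd5, Cd3e, Cd3g, Cd3d, Cd4 and Cd8a, did not pass at 24 h. The neutrophil list of 18 had 4, 4 and 6 that rose. The monocyte and macrophage list of 16 had 1, 1 and 5, and 1 that fell at 6 h.

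**Figure D4:**
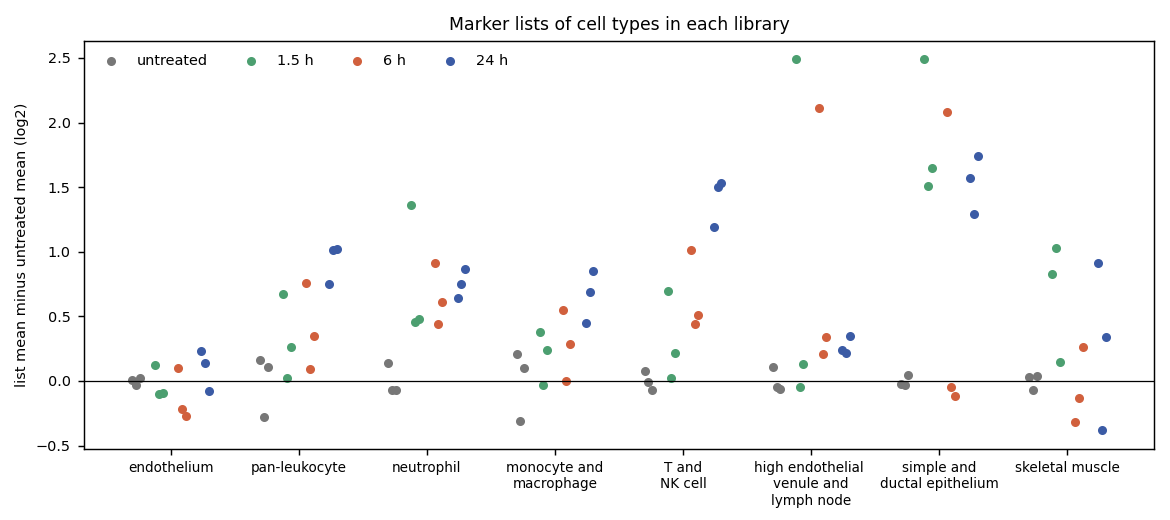
Mean log2 level of 8 cell type marker lists in each library, with the untreated mean set to 0. The endothelial list stays within 0.27 of the untreated mean, the T and NK cell list stands above it at 24 h, and 1 library each at 1.5 h and 6 h is high in the lymph node list.

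Several genes of the machinery that switches integrins on rose at 24 h. Of 17 such genes, 0, 2 and 6 rose at 1.5 h, 6 h and 24 h and 0 fell, with medians of 0.12, 0.22 and 0.48. Of these, Rac2 and Vav1 are also on the list of all leukocytes. The 2 that rose at 6 h were Rap1b, a small GTPase that activates integrins (0.43, adjusted p = 0.0483), and Cyth1, which binds the beta 2 chain (0.38, adjusted p = 0.0351). Their calls were lost without any of 9 and of 5 single libraries (adjusted p up to 0.148 and 0.102). Fyb, an adaptor of the integrin-activating complex, rose by 1.23 at 24 h (adjusted p = 0.00356), Fgr, a Src family kinase of myeloid cells, by 1.11 (adjusted p = 0.00341) and Rac2, a small GTPase of blood cells, by 1.25 (adjusted p = 0.0448). The call of Rac2 was lost without any of 8 single libraries (adjusted p up to 0.166). Without the 4 libraries high in Myl2 the change at 24 h was 1.32 for Fyb and 0.97 for Fgr. Of 14 genes for selectin ligands and their sugars, 0 changed at any of the 3 times by limma, with medians of -0.02, 0.01 and 0.06. The PSGL-1 gene Selplg, a ligand of Selp and Sele, stood 0.79 higher at 24 h (adjusted p = 0.0551).

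Of the other adhesion and junction genes of the vessel wall, single genes changed. Over all genes 0.612% rose and 1.59% fell at 1.5 h. At 6 h these shares were 3.38% and 2.71%, and at 24 h 2.55% and 0.808%. Of 17 further genes of endothelial adhesion and transmigration, 0 rose and 1 fell at 1.5 h, 0 changed at 6 h by limma, and 1 rose and 2 fell at 24 h, with medians of 0.06, -0.15 and -0.09. Alcam, an adhesion molecule of the immunoglobulin family, fell by 0.69 at 1.5 h (adjusted p = 0.0311). Stab1, a scavenger receptor of sinusoidal endothelium and macrophages, fell by 1.01 at 24 h (adjusted p = 0.0137), L1cam fell by 0.64 (adjusted p = 0.0334) and the poliovirus receptor gene Pvr rose by 0.62 (adjusted p = 0.0273). The calls of Alcam and L1cam were each lost without any of 5 single libraries (adjusted p up to 0.128 and 0.137) and that of Pvr without any of 4 (up to 0.099). That of Stab1 was lost without untreated replicate 3 (adjusted p = 0.0743) or 24 h replicate 3 (0.0768). Of 18 junction and barrier genes, 0 changed at 1.5 h and 6 h by limma and 1 rose at 24 h, with medians of -0.08, -0.16 and -0.15. This was the phosphatase gene Ptprj (0.58, adjusted p = 0.0241), and its call was lost when untreated replicate 2, untreated replicate 3, 24 h replicate 2 or 24 h replicate 3 was left out (adjusted p from 0.0586 to 0.119).

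Some genes that activated endothelium and other cells make rose at 6 h, when Icam1 and Vcam1 did. Of 19 such genes, 2 rose at 1.5 h, 8 rose and 1 fell at 6 h, and 4 rose at 24 h, with medians of 0.26, 0.10 and 0.34. Ccl2, the monocyte chemokine, measured 6.85 ± 0.10 in untreated skin, 9.74 ± 0.12 at 1.5 h, 11.41 ± 0.63 at 6 h and 10.75 ± 0.19 at 24 h (SD, n = 3 each), and its change was already 2.89 at 1.5 h (adjusted p = 3.77e-05). Vcam1 and Icam1 had not passed at that time. Cxcl1, a neutrophil chemokine, rose by 1.39 at 1.5 h (adjusted p = 0.0213), a call lost without untreated replicate 1 (adjusted p = 0.057), untreated replicate 2 (0.0718) or 1.5 h replicate 3 (0.0578). Cxcl2, another such chemokine, rose by 2.01 at 6 h (adjusted p = 0.00189) and Ptgs2, the inducible cyclooxygenase, by 1.96 (adjusted p = 0.000664). At 24 h the inducible nitric oxide synthase gene Nos2 rose by 2.45 (adjusted p = 4.22e-05) and the chemokine gene Cxcl5 by 1.91 (adjusted p = 5.54e-06).

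Of 23 cytokines, receptors and transcription factors known to induce adhesion molecules, 3 rose at 1.5 h, 7 at 6 h and 6 at 24 h and 0 fell, with medians of 0.21, 0.34 and 0.32. Tnf measured 5.75 ± 0.20 in untreated skin, 6.72 ± 0.09 at 1.5 h, 7.71 ± 0.36 at 6 h and 6.94 ± 0.26 at 24 h (SD, n = 3 each). It rose by 1.95 at 6 h (adjusted p = 6.81e-06) and by 1.19 at 24 h (adjusted p = 0.00117). Its rise of 0.96 at 1.5 h (adjusted p = 0.0181) was lost without untreated replicate 2 (adjusted p = 0.0816), untreated replicate 3 (0.083) or 1.5 h replicate 2 (0.0506). Irf1, an interferon-induced transcription factor, measured 7.39 ± 0.02, 8.27 ± 0.11, 9.60 ± 0.17 and 8.69 ± 0.25 in untreated skin and at 1.5 h, 6 h and 24 h (SD, n = 3 each), and was highest at 6 h, as Icam1 and Vcam1 were. Ifnb1, the interferon beta gene, was highest at 1.5 h, at 7.77 ± 0.39, against 3.42 ± 0.15 in untreated skin (SD, n = 3 each). Il1b rose by 1.12 at 24 h (adjusted p = 0.00494).

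**Figure D5:**
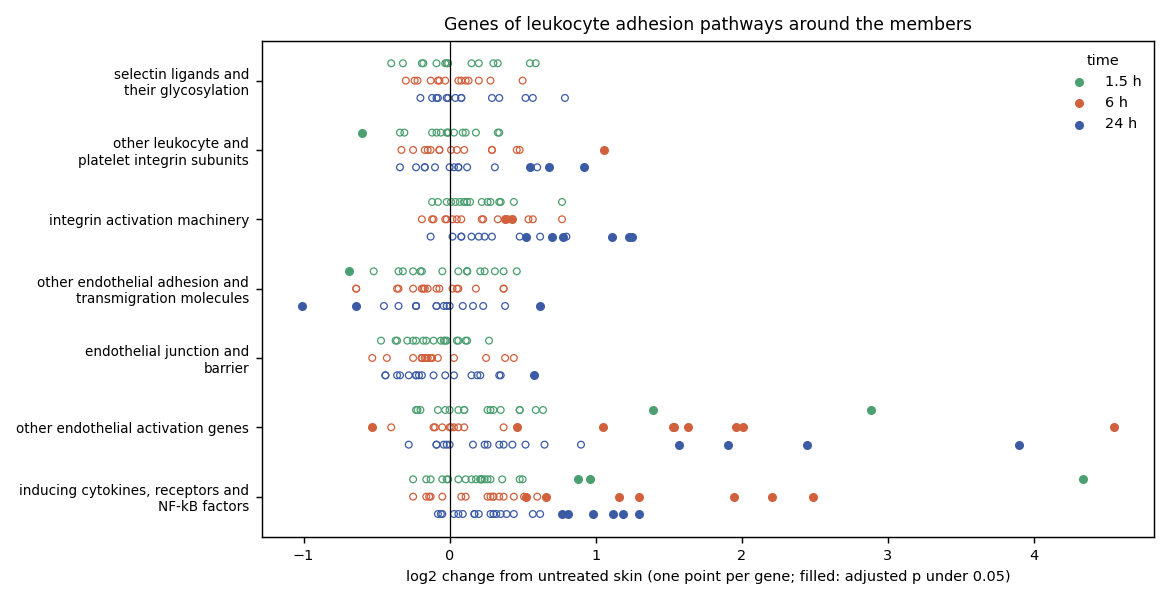
Log2 change from untreated skin of each gene of 7 lists of leukocyte adhesion at 1.5 h, 6 h and 24 h. Filled points have an adjusted p under 0.05. No selectin ligand point is filled. Single points are filled among junction genes and other vessel adhesion genes. Filled points reach 4.55 (Ccl2 at 6 h) among endothelial activation genes.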

How the data were processed

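RNA of 12 skin samples was measured on Affymetrix arrays. The authors deposited log2 intensities. Per the submitters' processing notes, they come from RMA in Affymetrix Expression Console, version 1.1. The table has 35556 probe sets and array medians of 5.53 to 5.76, and 0 columns were left unmapped. Without detection p-values, no gene was called absent. Of the probe sets, 21789 had 1 symbol in the platform annotation, 1621 had several and 12146 were not listed. A gene with several probe sets was represented by the one with the highest mean, which gave 19938 genes. Replicates of 1 group correlated at r = 0.980 to 0.987, and 0 pairs of arrays were identical. The number of arrays limits the precision, and p-values weigh a difference of group means against the spread between these samples.

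All 4 groups were fitted together with limma 3.58.1 in R 4.3.3 (8 residual and 5.24 prior degrees of freedom), with 6 comparisons and a moderated F test of any change from untreated skin. Tests were two-sided, adjusted by Benjamini-Hochberg over all genes within a comparison. The steps were tested on simulated data. From each pathway list the 3 called genes with the largest change at each time are named. Selplg, Itgb1, Prox1, Krt18 and Itga4 at 24 h are outside it and were picked with their values in view. The marker lists were reported mainly by counts, and the T and NK cell list at 24 h also by name. Ecscr of the endothelial list and Pdpn, Mmrn1 and Reln of the lymphatic list were also named with values. Glycam1 and Myl2 were named where libraries stood apart. Members, lists and alternatives were chosen with earlier results of these data known. The alternatives tried were a replicate block, leaving out libraries, other scalings and variance models, filters, thresholds, a marker list as covariate and fits of the compared groups. Leaving out the 4 libraries high in Myl2 was added after seeing the data. Figures were drawn with matplotlib 3.10.9.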

Additional observations from a re-analysis of the deposited data

Results flagged for a closer look

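Differences between times under the same contrast with untreated skin were tested directly, as the later time minus the earlier one, and those that passed in limma are given here. Icam1 was higher at 6 h than at 1.5 h by 1.32 (adjusted p = 0.00328) and Vcam1 by 1.00 (adjusted p = 0.000542), with 3 of 3 libraries at 6 h above all 3 at 1.5 h for both genes. Sele was higher at 6 h than at 1.5 h by 0.48 (adjusted p = 0.0472), with its libraries at 5.91 to 6.54 at 6 h and 5.63 to 5.90 at 1.5 h. Vcam1 was higher at 24 h than at 1.5 h by 0.63 (adjusted p = 0.0257), with its libraries at 6.75 to 7.00 at 24 h and 6.10 to 6.40 at 1.5 h. Single outlying libraries were not tested for, since each group has 3.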

How the results depend on the processing

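Results were recomputed in 27 other settings, 12 of which left out 1 library. The filter for genes above the median level drops Sele, so it tests fewer adhesion genes. At 1.5 h the count of changed adhesion genes was 0 in each setting. At 6 h it was 2, or 3 without 6 h replicate 1 and without the 2 libraries high in Glycam1. At 24 h, where 2 rose, leaving out 1 library gave 1 to 4. The count was 4 without the 2 libraries high in Glycam1 or with only the compared groups fitted. It was 1 without moderation of the variance or at an adjusted p under 0.01. Leaving out the 4 libraries high in Myl2 keeps a single library at 1.5 h and at 24 h, so the counts it changed are not given. From 1.5 h to 6 h the 3 became 2 to 3 without 1 library (2 in 10 of the 12 cases). It became 2 with array medians set equal, quantile normalization, cyclic loess, no moderation, only the compared groups, an adjusted p under 0.01 or the endothelial list as a covariate. With genes above the median level alone it was also 2, since Sele was not tested there. From 6 h to 24 h the 0 became 0 to 3 without 1 library, 3 without those high in Glycam1, and 2 with array medians set equal or with genes above the median level alone. Between 1.5 h and 24 h the 1 became 0 to 2 without 1 library and 4 without those high in Glycam1. It became 0 with array medians set equal, without moderation or at an adjusted p under 0.01. In the F test the 3 became 2 to 5 without 1 library, 5 without those high in Glycam1, and 1 without moderation. The causes were not tested. Of 48 changes of single adhesion genes, 18 had the other sign in at least 1 setting, and 0 of these had passed the test. That count cannot take in a change that rounds to 0.00. Such changes, of Itgam at 6 h (-0.28 to 0.23 over the settings) and Icam2 from 1.5 h to 6 h (-0.2 to 0.17), took both signs. The naming rule picks 65 changes of other genes from the pathway and marker lists, of which the text prints a part, and 34 of the 65 lost their call in at least 1 setting. Setting array medians equal moved the median change of all genes by 0.10 at 1.5 h and by -0.13 from 1.5 h to 6 h.

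With the replicate block, the counts of adhesion genes were 0, 2 and 2 at 1.5 h, 6 h and 24 h and 3 in the F test, as without it, and 3, 0 and 1 between times. Of the list genes, the calls of Itga5 at 24 h (adjusted p = 0.063) and Rap1b at 6 h (adjusted p = 0.0559) were lost under it, and the endothelial list had 2 genes higher at 24 h in place of 1. Libraries of the same replicate number deviated from their group means with r from -0.22 to 0.33, over 0.1 in 4 of 18 pairs. For different replicate numbers r was -0.28 to 0.24, over 0.1 in 7 of 36 pairs. The numbers were not taken to pair the libraries.

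With 3 libraries a group, a missed threshold does not show equal levels. The arrays give no detection call, and whole skin mixes cell types, so the results are levels in tissue and not per cell.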

Other observations

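Lymphatic vessel markers were measured beside the blood vessel genes. Of 6, 0 rose and 2 fell at 1.5 h, 1 rose and 0 fell at 6 h, and 1 rose and 0 fell at 24 h. Pdpn, which encodes podoplanin, rose by 0.62 at 6 h (adjusted p = 0.00924) and by 0.72 at 24 h (adjusted p = 0.00449). Without the 4 libraries high in Myl2 the change of Pdpn at 24 h was 0.78, with a single 24 h library left. The protein of Pdpn is also made by activated keratinocytes and fibroblasts. Mmrn1, an extracellular matrix protein of lymphatic and other endothelium, fell by 0.86 at 1.5 h (adjusted p = 0.0327), and Reln, which lymphatic vessels secrete, fell by 0.68 (adjusted p = 0.0307). Each of these falls was lost without any of 5 single libraries. Prox1, the transcription factor that sets lymphatic identity, did not pass at any of the 3 times, with changes of -0.41, -0.19 and -0.35.

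Of 7 measured platelet and megakaryocyte genes, 0 changed at any of the 3 times by limma.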
